A study of Mus musculus with 16 samples.

Results

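En2, Cnpy1, Epb41l4b and LOC108168956 are 4 genes that form 2 neighbouring pairs in the mouse genome, En2 with Cnpy1 on chromosome 5 and Epb41l4b with LOC108168956 on chromosome 4. They were selected on their own RNA levels in these libraries, as genes close to silent in WT dendritic cells (DCs) with their highest level in Trim33-deficient cDC1s, so those levels are given here as descriptions with no test. The 4 genes were taken from 16617 genes listed in both deposited tables, which hold 17128 genes for plasmacytoid DCs (pDCs) and 17721 genes for conventional DCs (cDCs). RNA had been sequenced from 16 libraries of splenic DCs sorted from C57BL/6 mice aged 6 to 8 weeks. WT mice were Trim33 fl/fl, with both Trim33 alleles flanked by loxP sites, and cKO mice were Trim33 fl/fl Itgax-Cre, so that every mouse carried the floxed alleles and the Cre alone set the genotypes apart. Itgax is the gene of CD11c, and its promoter drives Cre in DCs and in other cells that express CD11c. The labels call the cKO genotype Trim33-/-. Cells depleted of other lineages were sorted on CD11c: SiglecH+ cells as pDCs, and SiglecH- cells with MHC II as cDC1s where they carried CD24 without CD172a and as cDC2s where they carried CD172a without CD24. Each genotype gave 3 pDC, 2 cDC1 and 3 cDC2 libraries. Each library pooled several mice, with more mice in a cKO pool than in a WT pool. Levels are TPM, RSEM's relative transcript abundance, scaled by transcript length, so that levels of different genes can be set side by side.

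En2 encodes Engrailed 2, a homeobox transcription factor best known for patterning the midbrain and hindbrain. Cnpy1 encodes a member of the canopy family, small proteins of the endoplasmic reticulum, and the fish Cnpy1 protein supports fibroblast growth factor (FGF) signalling at the same boundary of the embryonic brain. Epb41l4b encodes a band 4.1 protein with a FERM domain, the fold by which such proteins link membrane proteins to the actin cytoskeleton. LOC108168956 is a predicted gene with a single RefSeq transcript and no established role.

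In RefSeq coordinates of the mm10 build, En2 lies at chr5:28165696-28172190 on the plus strand and Cnpy1 at chr5:28200819-28245788 on the minus strand, so the genes point at each other across a gap of 28628 bases. The 3 other RefSeq genes in that gap were not analysed here. Epb41l4b lies at chr4:56991972-57143168 on the minus strand, and LOC108168956 follows at chr4:57143258-57144651 on the same strand, just 89 bases upstream of the Epb41l4b start. In the GENCODE annotation, Epb41l4b starts further upstream and covers 180 bases of LOC108168956. Reads from that stretch could be counted for either gene, so the level of LOC108168956 is uncertain.

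Because the members share a pattern of levels, the DNA in front of their starts is shown, from RefSeq promoters of the GRCm38.p6 assembly (mm10). Of the 4 genes, 3 had an entry, and Cnpy1 had 2 starts. Each sequence reads 5′ to 3′ along the gene up to the start, leaving out any stretch that GENCODE annotates as an exon, which removed all of the Epb41l4b window. Capitals mark GAGGAA or its reverse complement TTCCTC, the core of the sequence bound by PU.1. The study reported both cooperation of TRIM33 with this myeloid factor and antagonism of it by TRIM33. The inner Cnpy1 start (chr5:28210169-28210341, minus strand), the outer Cnpy1 start (chr5:28245807-28246038, minus strand) and LOC108168956 (chr4:57144652-57144901, minus strand) read as follows.
Cnpy1, inner start: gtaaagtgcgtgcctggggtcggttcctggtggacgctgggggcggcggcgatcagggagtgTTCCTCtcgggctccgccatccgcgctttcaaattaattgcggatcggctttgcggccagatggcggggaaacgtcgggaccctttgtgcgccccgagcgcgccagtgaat
Cnpy1, outer start: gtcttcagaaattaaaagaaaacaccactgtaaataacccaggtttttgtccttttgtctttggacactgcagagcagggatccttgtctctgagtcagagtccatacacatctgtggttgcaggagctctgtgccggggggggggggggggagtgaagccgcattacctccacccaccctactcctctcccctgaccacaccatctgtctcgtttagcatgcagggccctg
LOC108168956: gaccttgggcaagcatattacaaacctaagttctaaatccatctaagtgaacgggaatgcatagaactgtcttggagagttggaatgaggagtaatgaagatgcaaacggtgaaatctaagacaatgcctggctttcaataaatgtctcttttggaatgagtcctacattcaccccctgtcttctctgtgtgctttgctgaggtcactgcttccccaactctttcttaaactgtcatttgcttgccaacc

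The 3 sequences shared little base composition. Over the full 250 bases before each start, G and C made up 67.2% at the inner Cnpy1 start, 53.2% at the outer one and 42.8% at LOC108168956, and 88.0% in the Epb41l4b window, against a median of 52.4% over 32851 mouse promoters. The ratio of observed to expected CG dinucleotides, high in CpG islands, was 1.04 at the inner Cnpy1 start and 1.09 at Epb41l4b, but 0.226 at the outer Cnpy1 start and 0.175 at LOC108168956, against a median of 0.373. GAGGAA was present on either strand in 1 of these 4 windows, the inner Cnpy1 start, and in 23.3% of all promoters. The longer form GAGGAAGT, which contains the shorter one, was in none of the 4 windows and in 2.44% of all promoters. These are matches of letters and say nothing about binding.

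Trim33 was checked in every group. Its level was 7.80 ± 0.12 TPM (SD, n = 2) in cKO cDC1s against 16.8 ± 1.9 TPM (n = 2) in WT cDC1s, 7.71 ± 0.51 TPM (n = 3) against 18.7 ± 1.8 TPM (n = 3) in cDC2s, and 13.6 ± 2.5 TPM (n = 3) against 22.3 ± 1.6 TPM (n = 3) in pDCs. The fit was limma on log2(TPM + 1), the values used for every log2 difference given here, with Benjamini-Hochberg adjustment over all genes with a mean of at least 1 TPM. A gene passed when its adjusted p was 0.01 or less and its log2 difference was 0.5 or more in size. Trim33 passed in cDC1s (log2 difference -1.02, SE 0.13, adjusted p = 0.000349) and in cDC2s (-1.17, SE 0.11, adjusted p = 0.000126). In pDCs it did not (-0.68, SE 0.13, adjusted p = 0.0301), and with the replicate number as a block it did (adjusted p = 0.00361). The Trim33 level left in cKO was 46.3% of WT in cDC1s and 41.3% in cDC2s, and the difference between these effects did not pass (0.16, SE 0.17, adjusted p = 0.539). Sequencing depth, read from the spacing of the lowest values, was between 17.9 and 19.97 M reads a library, and 3 reads on En2 corresponded to between 0.0795 and 0.103 TPM. In these bulk samples, more cells with a transcript and more transcript per cell cannot be told apart.

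Cnpy1 was close to absent from WT cells and abundant in cKO cDC1s. In cDC1s it was at 311.4 and 341.6 TPM in the cKO libraries and at 0.11 and 0.07 TPM in the WT libraries. The WT values were at the level of a few reads, so no fold is given. In cDC2s the cKO libraries held 4.62, 4.26 and 4.75 TPM and the WT libraries 1.36, 0.49 and 0 TPM. In pDCs the cKO libraries held 3.07, 2.65 and 2.28 TPM, and Cnpy1 was listed at 0 in all 3 WT libraries. The genotypes overlapped in no subset, and the gap between them was more than 300 TPM in cDC1s and a few TPM in the other subsets. Cnpy1 ranked 395 of 17721 genes by mean level in cKO cDC1s and 14019 in WT cDC1s.

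En2, the gene facing Cnpy1, reached a lower level. It was at 71.5 and 78.1 TPM in the cKO cDC1 libraries and at 0.20 and 0.24 TPM in the WT ones, which corresponds to about 2423 to 2782 reads against 7.41 to 8.67 reads. The means of 74.8 ± 4.7 and 0.22 ± 0.03 TPM (SD, n = 2 each) stand 339.8-fold apart, and the lower cKO library 297.8-fold above the higher WT library. In cDC2s the cKO libraries held 2.91, 3.91 and 3.82 TPM and the WT libraries 0.86, 0.35 and 0.17 TPM, a 7.71-fold ratio of means with no overlap, or 13.6-fold without the first WT library. In pDCs En2 was at 0.10, 0.37 and 0.46 TPM in cKO and at 0.10, 0.28 and 0.07 TPM in WT, between 1.91 and 13.8 reads a library, and the groups overlapped. A small difference in pDCs was not detectable at this depth.

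Epb41l4b was the most abundant of the 4 genes in every cKO group. The cKO cDC1 libraries held 599.3 and 629.9 TPM and the WT ones 0.64 and 1.42 TPM, a ratio of means of 597-fold, with the lower cKO library 422-fold above the higher WT library. Without the second WT library the ratio was 960-fold. In cKO cDC1s it ranked 212 of 17721 genes. In cDC2s it was at 42.7, 43.5 and 46.7 TPM in cKO and at 5.21, 1.61 and 1.08 TPM in WT, a ratio of 16.8-fold, or 32.9-fold without the first WT library. In pDCs it was at 11.7, 7.29 and 5.90 TPM in cKO and at 0.46, 0.40 and 0.32 TPM in WT, a ratio of 21.1-fold. The groups overlapped in no subset.

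LOC108168956 followed Epb41l4b at a lower level. It was at 64.1 and 56.6 TPM in cKO cDC1s and listed at 0 in both WT cDC1 libraries. In cDC2s the cKO libraries held 3.94, 3.50 and 3.96 TPM and the WT libraries 0.28, 0 and 0.30 TPM. In pDCs the values were 1.10, 0.16 and 0.47 TPM in cKO and 0, 0.32 and 0 TPM in WT, and the groups overlapped.

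**Figure D1:**
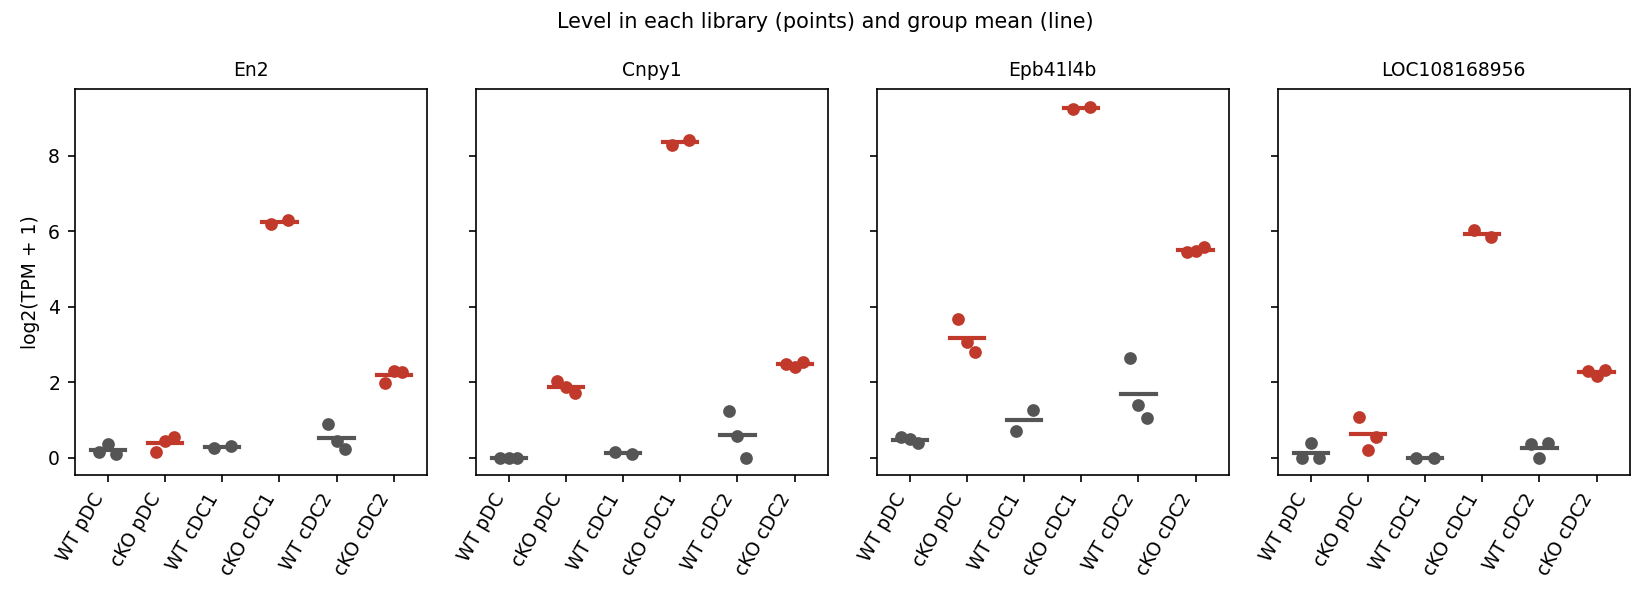
Level of each member in the 16 libraries. Each point is 1 library on a log2(TPM + 1) scale, grey for WT and red for cKO, and the line is the group mean. The cKO cDC1 points stand highest in all 4 panels, cKO cDC2 points come next, and the pDC points of En2 and LOC108168956 overlap between genotypes.

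In cDC1s and in cDC2s all 4 members had every cKO library above every WT library, and in pDCs 2 of 4 did, Cnpy1 and Epb41l4b. Over all listed genes the same held for 37.8% in cDC1s, 11.5% in cDC2s and 8.93% in pDCs, and since the members were chosen by these contrasts, nothing is read from their counts. Levels of pDCs and cDCs come from tables made separately, and an order across them is a description. The order of the 6 groups was cKO cDC1s, cKO cDC2s and then lower values for each member. For Cnpy1 and Epb41l4b the third group was cKO pDCs, whose range lay below that of cKO cDC2s and above that of WT cDC2s. For En2 the remaining 4 groups overlapped from one to the next, and for LOC108168956 the 4 groups below cKO cDC2s did so too. All 4 members passed the filter of a mean of at least 1 TPM in the cDC table, and 2 of 4 passed it in the pDC table, since En2 and LOC108168956 were below it there.

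The drop from cKO cDC1s to cKO cDC2s was not of one size. The ratio of means was 71.9-fold for Cnpy1 (from 65.6 to 80.2 over pairs of libraries), 21.1-fold for En2 (from 18.3 to 26.8), 15.9-fold for LOC108168956 (from 14.3 to 18.3) and 13.9-fold for Epb41l4b (from 12.8 to 14.8). Within the chromosome 5 pair, En2 was at 23.0% and 22.9% of Cnpy1 in the cKO cDC1 libraries but at 63.0%, 91.8% and 80.4% in the cKO cDC2 libraries. In the cKO pDC libraries En2 was at 3.26%, 14.0% and 20.2% of Cnpy1, with few reads behind En2. The chromosome 4 pair was in closer proportion in cDCs, with LOC108168956 at 10.7% and 8.99% of Epb41l4b in cKO cDC1s and at 9.23%, 8.06% and 8.47% in cKO cDC2s. In cKO pDCs it was at 9.38%, 2.19% and 7.97%. Between the pairs, Epb41l4b stood 1.92 and 1.84 times above Cnpy1 in cKO cDC1s, 9.24, 10.20 and 9.84 times in cKO cDC2s, and 3.82, 2.75 and 2.59 times in cKO pDCs.

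The levels in cDC2s and pDCs stand beside those of cDC1 markers in the same libraries. Xcr1, the chemokine receptor that marks cDC1s, was at 1.71, 2.14 and 5.82 TPM in the cKO cDC2 libraries, 1.51% of its cKO cDC1 mean, and at 1.88, 2.11 and 1.63 TPM in the cKO pDC libraries, 0.879% of it. In the cKO cDC2 libraries Cnpy1 was at 4.62, 4.26 and 4.75 TPM, with no such spread between libraries. As a percent of its cKO cDC1 mean, Cnpy1 was at 1.39% in cKO cDC2s and 0.817% in cKO pDCs, close to Xcr1 by group means only. Epb41l4b was at 7.21% and 1.35%, LOC108168956 at 6.29% and 0.955%, and En2 at 4.74% and 0.415%. Of the 10 cDC1 markers listed, 0 stood below Cnpy1 in cKO cDC2s by this share, 4 below En2, and 7 below Epb41l4b and below LOC108168956. In cKO pDCs 2 stood below Cnpy1, 1 below En2, and 4 below Epb41l4b and below LOC108168956. Many of these markers are also made by the other subsets: Irf8 was at 186% of its cKO cDC1 level in cKO pDCs, and Batf3 at 58.8% in cKO cDC2s. Summed over the 10 markers, cDC1s held 5814 to 5950 TPM, cDC2s 518.1 to 665.3 TPM and pDCs 3776 to 4330 TPM, and none of the 10 was at 0 in a whole group. The part that cDC1 RNA in the cDC2 and pDC sorts had in these levels was not tested.

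**Figure D2:**
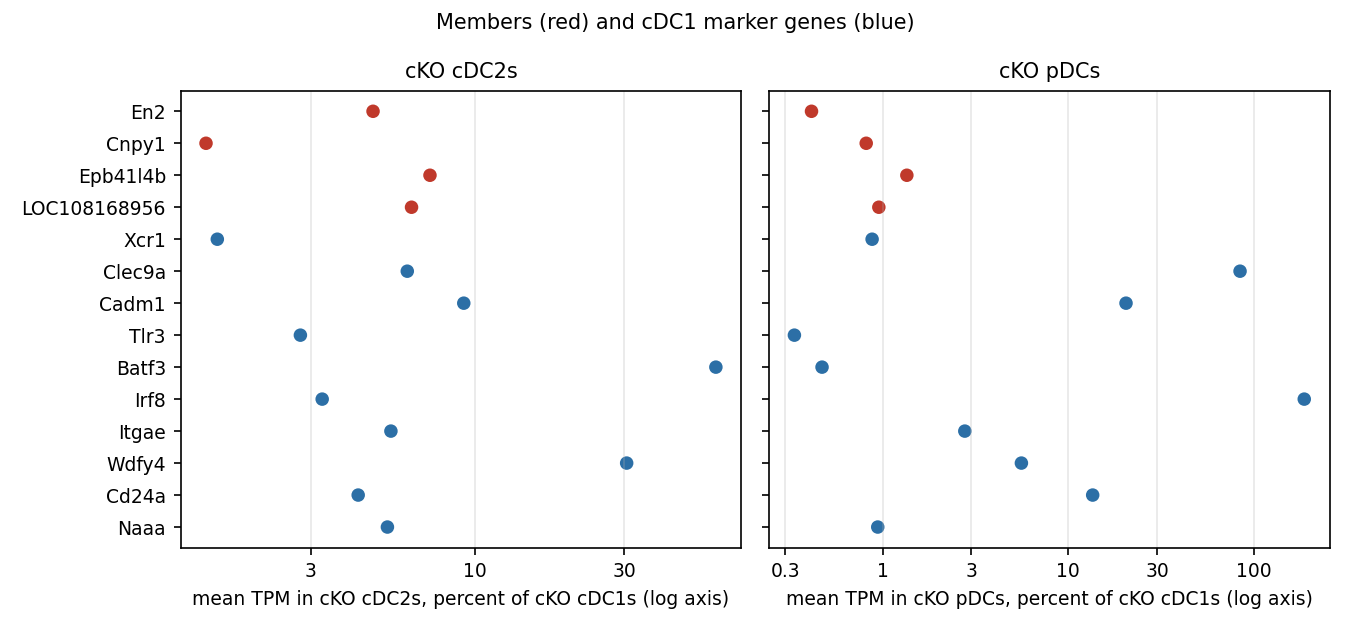
Mean TPM in cKO cDC2s (left) and cKO pDCs (right) as a percent of the mean in cKO cDC1s, on a log axis, for the 4 members (red) and 10 cDC1 marker genes (blue). Cnpy1 sits next to Xcr1 in both panels, at 1.39% beside 1.51% and at 0.817% beside 0.879%. Epb41l4b sits to the right of Cnpy1, at 7.21% and 1.35%. The markers run from 1.51% to 58.8% (Batf3) on the left and from 0.335% (Tlr3) to 186% (Irf8) on the right.

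Among WT libraries, the first cDC2 library held the highest En2 (0.86 TPM), Cnpy1 (1.36 TPM) and Epb41l4b (5.21 TPM) of its group. In that library LOC108168956, at 0.28 TPM, was not the highest of the group. The same library also held the most Xcr1, at 6.60 TPM against 2.73 and 1.97 TPM. WT cDC1s themselves held 0.22, 0.09 and 1.03 TPM of En2, Cnpy1 and Epb41l4b on average, below the values in that cDC2 library. The cDC2 ratios of En2 and Epb41l4b are therefore given above with and without it.

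A rule on levels placed the members among other genes close to silent in WT. A gene was counted as switched on when it was under 1 TPM in every WT library of a subset and at 10 TPM or more in every cKO library. In cDC1s 12 of 17721 genes met this (0.0677%), among them En2, Cnpy1 and LOC108168956, and 3 genes met the reverse. Epb41l4b missed it through the WT library at 1.42 TPM. In cDC2s 5 genes met it (0.0282%) and in pDCs 0 of 17128 did (0%), with no member in either. The 5 highest of the 12 in cKO cDC1s were Hsd17b6, a steroid dehydrogenase, at 759 ± 78 TPM, Cnpy1 at 326 ± 21 TPM, Selenbp2, a selenium-binding protein, at 179 ± 0.84 TPM, Apcdd1, a membrane inhibitor of Wnt signalling, at 163 ± 4.9 TPM, and En2 at 74.8 ± 4.7 TPM (SD, n = 2).

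These genes split by what they did in cDC2s. Selenbp2 was at 179 TPM in both cKO subsets, and Flrt3, an adhesion protein with leucine-rich repeats, was higher in cKO cDC2s (179 TPM) than in cKO cDC1s (51.5 TPM). En2, Cnpy1 and LOC108168956 were lower, at 3.55, 4.54 and 3.80 TPM in cKO cDC2s, beside Pcsk6 at 3.95 TPM and Il20ra at 0.063 TPM. Epb41l4b, which missed the rule, was at 44.3 TPM there. Members were chosen for levels highest in cKO cDC1s, so nothing is read from their place in this split. In all, 3 of the 12 genes were also switched on by the same rule in cDC2s, and 10 of 12 had every cKO cDC2 library above every WT one. Over the 9 that are not members, the first WT cDC2 library was the highest of its group for 2 and the second for 5.

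**Figure D3:**
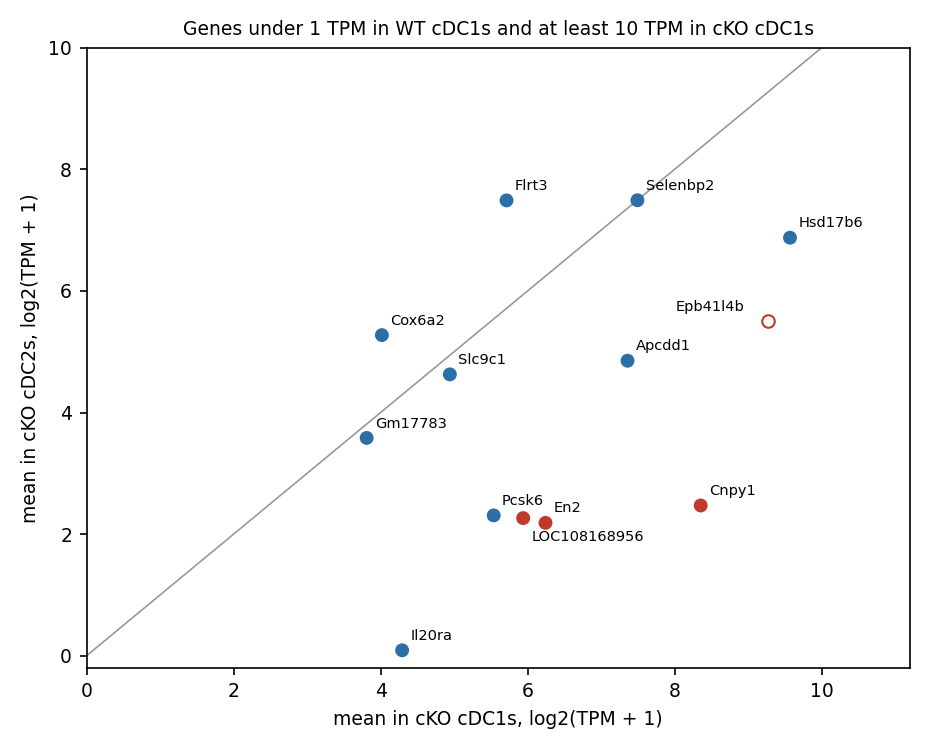
The 12 genes under 1 TPM in both WT cDC1 libraries and at 10 TPM or more in both cKO cDC1 libraries, with the mean in cKO cDC1s across and in cKO cDC2s up, both as log2(TPM + 1). Members are red, Epb41l4b is the open circle because a WT library exceeded 1 TPM, and the line marks equal levels. En2, Cnpy1 and LOC108168956 lie far below the line, at 3.55 to 4.54 TPM in cKO cDC2s, while Selenbp2 lies on it at 179 TPM.

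Over the 10 cDC libraries, the genes whose log2(TPM + 1) was most like that of a member by Pearson correlation were often other members. For En2 these were Cnpy1 (r = 0.997), LOC108168956 (0.993) and Eprs (0.986), which encodes a tRNA synthetase. For Cnpy1 they were En2, LOC108168956 (0.986) and Eprs (0.980). For LOC108168956 they were Gspt1 (0.996), a translation termination factor, En2 (0.993) and Mthfd1 (0.992), an enzyme of folate metabolism. For Epb41l4b they were Ltv1 (0.990), a ribosome assembly factor, Apcdd1 (0.985) and Susd1 (0.983), and the partner LOC108168956 came lower at 0.975. Such values follow from 2 high libraries among 10 and from libraries shared by all genes. Members were also chosen for one shared pattern in these libraries, so likeness among them is built in. The scale differs: Eprs was at 37.8 TPM in WT and 66.8 TPM in cKO cDC1s, and Gspt1 at 33.7 and 61.3 TPM.

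The genes around each pair were tested, since the choice of members did not use them. Within 1 Mb of En2 and Cnpy1, 2 of 4 tested genes rose in cKO cDC1s, and within 1 Mb of Epb41l4b and LOC108168956, 3 of 5 did. None fell. Over all tested genes, 15.8% rose in cDC1s and 22.4% passed in either direction. None of the 9 genes passed in cDC2s, where 3 had an unadjusted p under 0.05 and 7.15% of all genes passed, and none of 10 passed in pDCs, where 1 had an unadjusted p under 0.05 and 1.05% of all genes passed, also with the replicate block. The median log2 difference of the 9 genes in cDC1s was 0.65, against 0.17 over all 11411 tested genes.

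Rbm33, an RNA-binding protein gene 71.0 kb beyond Cnpy1 and its nearest neighbour in the table, was at 72.5 and 64.4 TPM in cKO cDC1s and at 24.5 and 27.5 TPM in WT. It rose by 1.36 on the log2 scale (SE 0.20, adjusted p = 0.000680), and its groups were well apart. In cDC2s the values were 36.7, 25.4 and 28.3 TPM in cKO and 32.5, 26.8 and 39.9 TPM in WT, with overlap (log2 difference -0.13, adjusted p = 0.611). The genotype effect was larger in cDC1s than in cDC2s by 1.49 (SE 0.26, adjusted p = 0.00761), and Rbm33 alone of the 9 genes passed this test of the difference, against 2.56% of all genes in either direction and 1.21% in this one. Over alternatives with at least 2 libraries a group its adjusted p ran from 0.00399 to 0.0260. The call was lost in 11 of 21 alternatives. Among these were no filter on low values, no mean-variance trend, the replicate block and a crossed replicate block. The others were leaving out any of the 4 cDC1 libraries, the first WT cDC2 library or cKO cDC2 library 2 or 3.

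On the other side of En2, Insig1, a regulator of sterol synthesis 87.0 kb away, was at 38.2 and 35.5 TPM in cKO cDC1s and at 16.8 and 31.6 TPM in WT, and it did not pass (0.65, SE 0.27, adjusted p = 0.0786). Paxip1, which encodes a subunit of histone methyltransferase complexes, lies 374 kb away and rose from 15.4 and 16.3 TPM to 29.6 and 30.5 TPM in cKO cDC1s (0.88, SE 0.15, adjusted p = 0.00165). Insig1 is nearer to En2 than Paxip1, and their differences were not tested against each other.

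Around Epb41l4b, the gene nearest to it is Frrs1l, 1.6 kb away, which was between 0 and 0.28 TPM in all 16 libraries and was not tested. Ptpn3, a tyrosine phosphatase that itself has a FERM domain, lies 46.2 kb beyond LOC108168956 and rose from 5.08 and 3.70 TPM to 10.2 and 9.79 TPM in cKO cDC1s (1.04, SE 0.21, adjusted p = 0.00386). In cDC2s Ptpn3 was at 24.8, 20.3 and 19.7 TPM in cKO and at 26.8, 25.5 and 39.7 TPM in WT (-0.46, SE 0.17, adjusted p = 0.0872), and the difference between the effects just missed the threshold (1.503, SE 0.27, adjusted p = 0.0103). Tmem245, 44.5 kb away, rose from 3.88 and 5.54 TPM to 12.1 and 9.07 TPM in cKO cDC1s (1.02, SE 0.24, adjusted p = 0.00835).

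Under median-of-ratios scaling, which removed most of the 0.17 shift of all genes in cDC1s, Tmem245 no longer passed and 3 of 9 genes did. Of all 11411 tested genes, 2134 passed in cDC1s under that scaling, 1067 of them higher in cKO, against 2555 and 1806 without it. Of all genes passing in cDC1s, 70.7% were higher in cKO, and 50% under that scaling. In cDC2s the share was 50.2% and 60.4%, and for the difference 47.3% and 26.2%. Leaving out the first cKO cDC1 library left 0 of 9, the second left 1, and leaving out the first or the second WT cDC1 library left 2 and 3. None of these neighbours came near the size of the members' own differences.

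**Figure D4:**
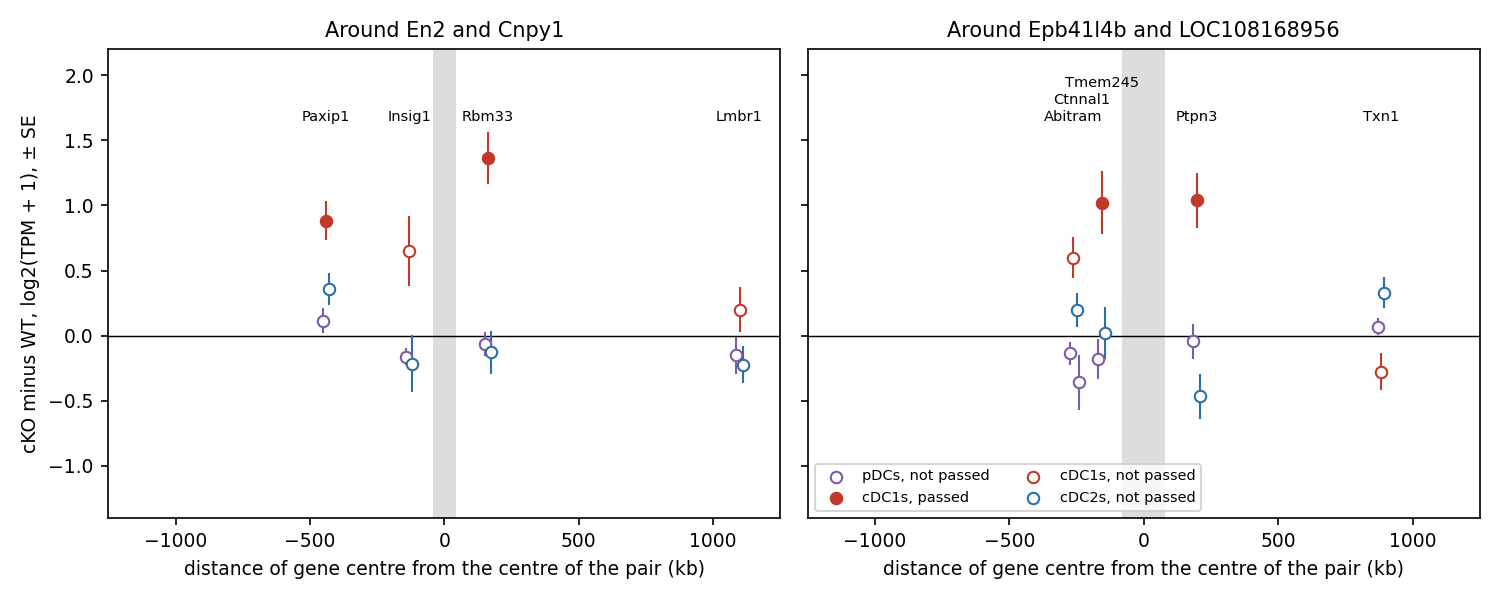
Genotype effect on tested genes within 1 Mb of each pair. The x axis is the distance of the gene's centre from the centre of the pair in kb, with the pair as a grey band, and the y axis is cKO minus WT in log2(TPM + 1) with its SE, for pDCs (purple), cDC1s (red) and cDC2s (blue), filled where the gene passed. 1 tested gene is not drawn. The 4 filled points are all of cDC1s, from 0.88 for Paxip1 to 1.36 for Rbm33.

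Relatives of the members by family or pathway did not share their behaviour as a group. Of the 3 other canopy genes, Cnpy4 rose in cDC1s from 7.71 ± 0.13 to 15.4 ± 0.69 TPM (SD, n = 2 each; log2 difference 0.92, SE 0.12, adjusted p = 0.000342) and passed in no other subset. Cnpy2 and Cnpy3, endoplasmic reticulum proteins, of which the latter assists Toll-like receptor folding, did not pass in any. Cnpy2 was at 45.0 TPM in cKO and 45.4 TPM in WT cDC1s, and Cnpy3 at 158 and 155 TPM.

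Of 27 other FERM domain genes, 18 were tested in each fit. In cDC1s 5 rose (Ptpn3, Msn, Rdx, Frmd8 and Nf2) and 3 fell (Mylip, Farp2 and Frmd5), with a median of 0.35. Over all tested genes 15.8% rose, 6.56% fell and the median was 0.17. Frmd8 and Nf2 did not pass under median-of-ratios scaling, and Frmd5 lost its call in 15 of 21 alternatives and Farp2 in 10 of 20. Msn and Rdx encode moesin and radixin, linkers of actin to the plasma membrane, and rose by 0.95 (adjusted p = 0.000751) and 0.74 (adjusted p = 0.000361). Mylip, a ubiquitin ligase acting on lipoprotein receptors, fell by 0.92 (adjusted p = 0.00133). In cDC2s, where 7.15% of all genes passed, Frmd5 alone did, falling from 16.2 ± 1.8 to 4.003 ± 0.31 TPM (SD, n = 3 each; -1.78, adjusted p = 4.8e-05), and in pDCs (1.05% of all genes) Frmd4b alone, falling from 19.7 ± 0.77 to 9.47 ± 0.23 TPM (-0.98, adjusted p = 0.00157). The closest relatives of Epb41l4b, namely Epb41l4a and Epb41l5, stayed at or below 0.32 TPM in every library.

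**Figure D5:**
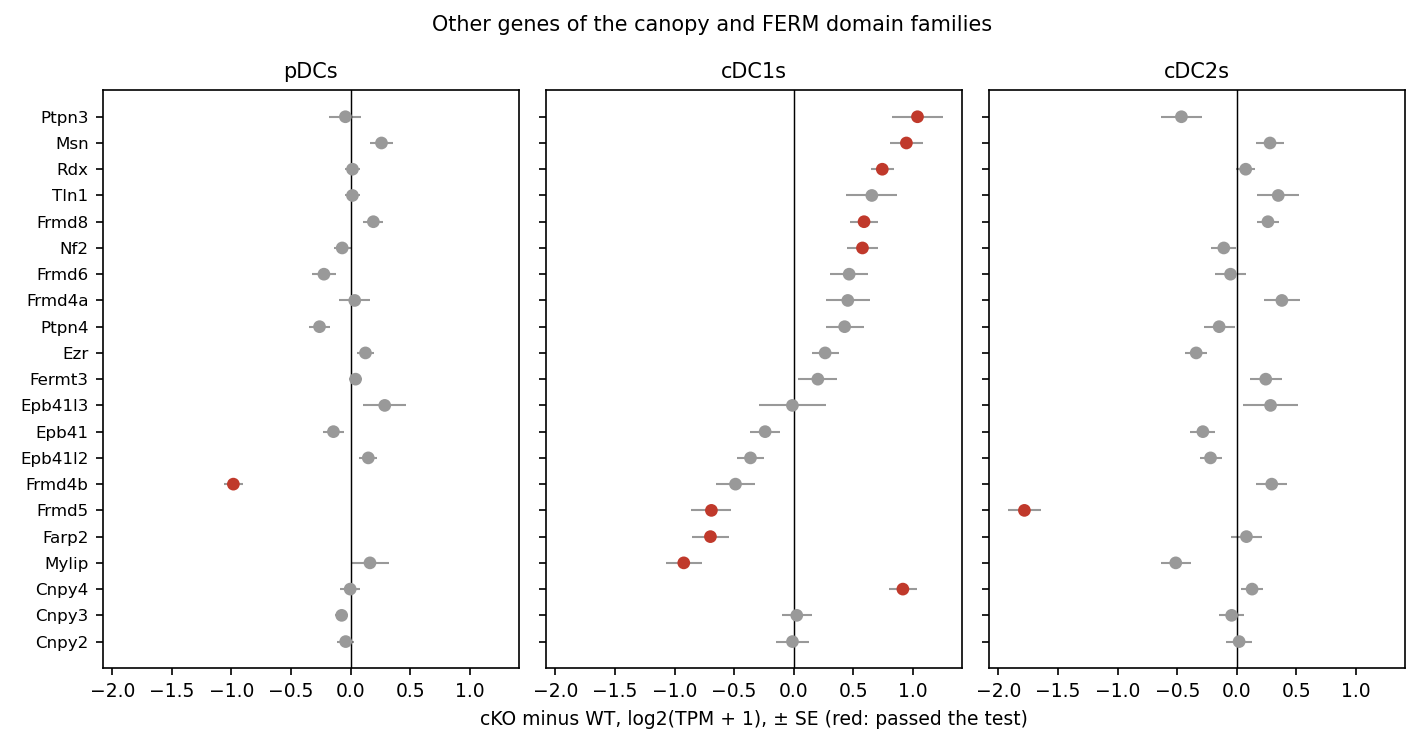
Genotype effect, cKO minus WT in log2(TPM + 1) with its SE, on the canopy and FERM domain genes that were tested in cDCs, in pDCs, cDC1s and cDC2s. Red points passed the test. Frmd5 and Farp2 were not tested in pDCs. In cDC1s 6 red points lie above 0 and 3 below it, and each of the other panels holds 1 red point, Frmd4b at -0.98 in pDCs and Frmd5 at -1.78 in cDC2s.

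A list of 33 genes of the Engrailed network and of FGF signalling held 16 tested genes in each fit. Etv5, an ETS factor induced by FGF signalling, rose in cDC1s from 1.48 ± 0.05 to 5.72 ± 0.39 TPM (SD, n = 2 each; 1.44, adjusted p = 0.000169) and in cDC2s from 7.07 ± 0.70 to 14.96 ± 2.4 TPM (SD, n = 3 each; 0.98, adjusted p = 0.0011). Spred2, an inhibitor of the Ras pathway, rose in cDC1s by 0.98 (adjusted p = 0.00804). That call was lost in 11 of 21 alternatives, among them median-of-ratios scaling (adjusted p = 0.0206) and quantile normalization (adjusted p = 0.0276). Its relative Spred1 rose in pDCs by 1.01 (adjusted p = 0.00258). No gene of this list fell. In cDC1s 2 of 16 genes passed, where 22.4% of all genes did, with a median log2 difference of 0.12 against 0.17. In cDC2s 1 of 16 passed, where 7.15% of all genes did, and in pDCs 1 of 16, where 1.05% did. In pDCs Etv5 was at 23.8 ± 0.94 TPM in cKO and 7.21 ± 3.0 TPM in WT (SD, n = 3 each) and just missed the threshold (1.66, adjusted p = 0.0105), as did Dusp6, a phosphatase of the ERK kinases (1.43, adjusted p = 0.0125). With the replicate block both passed (adjusted p = 0.00145 and 0.000664). En1, the other Engrailed gene, was at most at 0.09 TPM in the pDC table and is not listed in the cDC table, and Wnt1, Gbx2, Otx2 and Lmx1b were at most at 0.19 TPM in any library.

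Of 92 other homeobox genes, 36 were tested in cDCs and 37 in pDCs. In cDC1s Pou2f2 (1.19), Hoxa7 (1.00) and Cux1 (0.85) rose and Meis3 (-1.06) and Zhx2 (-0.61) fell, all log2 differences with an adjusted p of at most 0.01. These are 5 of 36 genes, where 22.4% of all genes passed, and Zhx2 lost its call in 13 of 20 alternatives. Hoxa7 lost its call in 9 of 20, Meis3 in 8 of 21, Cux1 in 5 of 21 and Pou2f2 in 2 of 21. In cDC2s none rose and 6 of 36 fell, against 3.56% of all genes, led by Hoxc4, from 10.8 ± 0.45 to 1.03 ± 0.02 TPM (SD, n = 3 each; -2.55, adjusted p = 2.1e-06), then Meis3 (-1.65), Pou6f1 (-1.60), Hoxa5 (-1.39) and Six5 (-0.86), with Zhx2 the sixth. In pDCs Pou6f1 fell from 27.8 ± 1.1 to 14.2 ± 0.61 TPM (-0.92, adjusted p = 0.00157). Across the 4 lists, 3 genes passed in pDCs, and with the replicate number as a block 7 did. The added ones were Dusp6, Etv5, Spred2 and Duxbl3. Of all 11299 tested genes, 119 passed in pDCs without the block and 335 with it, so the calls rose over the whole transcriptome as well.

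Markers of the sorted subsets and of other cells were read from 9 lists in the same libraries. Over all tested genes, 15.8% rose and 6.56% fell in cDC1s, 7.15% passed in cDC2s and 1.05% passed in pDCs. The share of all genes with an unadjusted p under 0.05 is not given, so nothing is read from counts at that level. The pDC list summed to 18623 TPM or more in pDCs and to 580.02 TPM or less in cDCs, and the cDC2 list to at least 1190 TPM in cDC2s and at most 42.0 TPM in cDC1s. The cDC2 list does not set cDC2s apart from pDCs, where it summed to 1714 to 1898 TPM, above the 1190 to 1386 TPM of cKO cDC2s. In cDC1s 3 of 10 cDC1 markers fell (Clec9a, Cadm1 and Itgae). Xcr1 was at 213 ± 16 TPM in cKO and 305 ± 2.9 TPM in WT cDC1s (SD, n = 2 each). It did not pass (log2 difference -0.52, SE 0.46). Its spread was pooled with cDC2 libraries, where Xcr1 was at 1.71 to 6.60 TPM. No cDC1 marker passed in cDC2s or pDCs, where 3 of 10 and 3 of 7 tested markers had an unadjusted p under 0.05. Cox6a2 of the pDC list rose in all 3 subsets, and in cDC1s Bst2 and Tcf4 also rose and Ccr9 and Pacsin1 fell. Of the cDC2 list, Itgam rose in all 3 subsets and Clec10a in both cDC subsets, Mgl2 rose in cDC2s, Cd4 and Esam fell in both cDC subsets, and Irf4 and Dtx1 fell in cDC2s.

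Of the monocyte and macrophage list, 3 of 12 genes rose in cDC1s (Ly6c2, Ccr2 and Csf1r) and 1 fell (Vcam1). The list summed to 206.8 to 227.0 TPM in cKO cDC1s and to 128.7 to 162.0 TPM in WT. The higher sum came from the 3 genes that rose, led by Ccr2, at 99.1 TPM in cKO and 23.6 TPM in WT. Every other gene of the list had a lower mean in cKO cDC1s. The median log2 difference of the list was -0.60, against 0.17 over all tested genes. In cDC2s 3 of 12 rose (Ccr2, Csf1r and Fcgr1) and the sums overlapped, at 741.7 to 1108 TPM in cKO and 592.1 to 897.8 TPM in WT. In pDCs none passed and 7 of 11 had an unadjusted p under 0.05. Of the NK cell list, Klrk1 rose in both cDC subsets and Klri2 fell in cDC2s, none of 2 passed or had an unadjusted p under 0.05 in pDCs, and the sums in cDC1s were 105.2 to 117.2 TPM in cKO against 51.9 to 65.4 TPM in WT. That difference was the one of Klrk1, which alone was at 105.7 TPM in cKO and 52.6 TPM in WT cDC1s.

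Neutrophil and erythroid markers passed in no subset, with 1 of 7 tested neutrophil genes at an unadjusted p under 0.05 in cDC1s and in cDC2s, 3 of 6 in pDCs, and no erythroid gene in any. Neutrophil sums in cKO and WT were 26.4 to 46.5 against 4.92 to 21.1 TPM in cDC1s, and 34.6 to 142 against 12.8 to 34.2 TPM in pDCs. The T cell list had Thy1 rising in pDCs and no call among 4 genes in cDCs, where 1 had an unadjusted p under 0.05 in cDC1s. The B cell list had Blk rising in pDCs, Ms4a1 falling in cDC1s, and Ms4a1, Cr2 and Blk falling in cDC2s. The part of these cell types in the levels of the members was not tested.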

How the data were processed

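RNA-seq libraries were grouped by their titles into the 6 combinations of genotype and subset. The authors had single-end 50-base BGISEQ-500 reads filtered, mapped with Bowtie2 and quantified per gene with RSEM, and the submitters' processing notes name Bowtie2 2.2.5, HISAT2 2.0.4, RSEM 1.2.12 and mm10. The TPM values and FPKM values used here were deposited by the authors, in a pDC table and a cDC table with different genes, so no test spans both. Counts were not used, and limma took the place of the authors' count model. RSEM shares out reads between overlapping genes, which bears on LOC108168956 and Epb41l4b.

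Gene IDs were named through RefSeq (GRCm38.p6), which matched 17079 and 17667 of them. limma 3.58.1 (R 4.3.3) was fitted, with a mean-variance trend, to log2(TPM + 1) of genes with a mean of at least 1 TPM, 11299 in the 6 pDC libraries and 11411 in the 10 cDC libraries with 4 group means, two-sided, with Benjamini-Hochberg adjustment over all tested genes. Where a group had 2 libraries, their spread was pooled with the other groups. Library depth was estimated from the steps between low FPKM values of genes with 1 transcript. Libraries within a group correlated at r = 0.991 to 0.997 and none were identical. The study describes the libraries as biological repeats. Whether libraries of different subsets shared mice is not stated in the sources used here.

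Replicate numbers were checked as pairs by correlating deviations from group means. In pDCs all 3 same-numbered pairs exceeded 0.1 (0.310, 0.392 and 0.206), so the block is given beside pDC results it changed. In cDC1s (-0.233) and cDC2s the numbers did not pair the libraries.

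The members and all gene lists were chosen with earlier results of these data known. Named genes are the members, Trim33, passing neighbours within 1 Mb and the nearest gene on each side, the passing list genes (up to 5 a direction), the 3 most correlated genes of each member, and the 5 highest switched-on genes. Of the passing neighbours, 1 is counted and not reported here.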

Additional observations from a re-analysis of the deposited data

Results flagged for a closer look

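For 5 named genes, the genotype effect differed between cDC1s and cDC2s by the limma test of that difference (adjusted p of at most 0.01). Rbm33 differed by 1.49 on the log2 scale, as described beside its neighbours. Hoxc4 differed by 2.69, being at 0.075 ± 0.11 and 0.19 ± 0.16 TPM in WT and cKO cDC1s against 10.8 ± 0.45 and 1.03 ± 0.02 TPM in cDC2s, and it passed under all 20 alternatives. Near 0 in cDC1s of both genotypes, it had no level there to fall from, so the difference restates the fall in cDC2s. Hoxa5 differed by 1.72, from 1.43 to 2.02 TPM in cDC1s and from 7.41 to 2.27 TPM in cDC2s, and lost the call in 10 of 20 alternatives. Hoxa7 differed by 1.80, from 1.52 to 4.005 TPM in cDC1s and from 5.98 to 3.06 TPM in cDC2s, and lost it in 11 of 20. Six5 differed by 1.07, from 0.595 to 0.835 TPM in cDC1s and from 3.41 to 1.43 TPM in cDC2s, and it lost the call in 16 of 19 alternatives, with a level under 1 TPM in cDC1s of both genotypes.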

How the results depend on the processing

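The members' levels kept their order of genotypes, and overlapped or not in the same subsets, with FPKM, median-of-ratios scaling and quantile normalization. For genes passing by limma, a replicate block gave 335 in pDCs in place of 119, 356 in cDC2s in place of 816 and 95 for the difference between cDC1s and cDC2s in place of 292. The numbers pair only the pDC libraries. With the block, the gene lists had 7 calls in pDCs (3 without), 9 in cDC1s (16 without) and 1 for the difference (4 without), and the neighbours 2 in cDC1s (5 without) and 0 for the difference (1 without). A crossed replicate block in cDC1s, added after seeing the data, gave 111 genes for the difference, 2 and 0 neighbours, and 10 and 1 list genes. In pDCs no filter gave 24 genes and no trend 56. A log2 threshold of 1 left 1000 genes in cDC1s and 293 in cDC2s, 3 neighbours in cDC1s, and 1, 5 and 5 list genes in pDCs, cDC1s and cDC2s.

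Neighbours in cDC1s numbered 3 with no filter, 3 with median-of-ratios scaling, 3 with quantile normalization, and 11 of 24 within 2 Mb. For the difference they numbered 2 with a pseudocount of 0.1 or 0.5, FPKM, either scaling or 2 Mb, and 0 with no filter or no trend. List genes numbered 10 in cDC1s with no filter, 3 in cDC2s and 0 for the difference at a mean TPM of 5, and 7 for the difference with FPKM. The cause of these changes was not tested.

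Leaving out 1 library gave 12 to 97 genes in pDCs, 800 to 2888 in cDC1s, 316 to 907 in cDC2s and 77 to 282 for the difference, 0 to 6 neighbours in cDC1s and 0 to 2 for the difference, and list calls of 0 to 3 in pDCs, 3 to 17 in cDC1s, 7 to 11 in cDC2s and 1 to 5 for the difference. The lowest gene counts came without WT pDC library 3, cKO cDC1 library 1 (cDC1s and the difference) and cKO cDC2 library 3. With 2 libraries a group in cDC1s and a few reads per library behind En2 in pDCs, small differences were not detectable.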
